A study of Mus musculus with 8 samples.

Results

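The collagen gene family was examined in the left and right heart fields of mouse embryos. Members were all protein-coding genes of the count table whose symbol is Col followed by a chain type, the letter a and a chain number, which gave 44 genes of 48526. By the assembly that their proteins form, they were grouped as 11 fibrillar, 9 network, 9 FACIT (fibril-associated collagens with interrupted helices) and 15 other collagens. The last group holds 6 beaded filament, 4 transmembrane, 2 multiplexin and 1 anchoring fibril collagens, and 2 that belong to no such class. The rule uses symbols and no measured value, but members and lists were chosen with earlier results of these data known.

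The tissue was the heart field, the mesoderm that supplies cells to the growing heart tube, bisected into left and right from 4 wild-type C57bl6/J male embryos at E8.5f, a stage of heart looping. Each of the 8 libraries holds 1 side of 1 embryo, so that the embryos L29-3, L43-5, L46-8 and L49-3 each give a left and right pair. All carry the same wild-type genotype, and no animals were pooled. The comparison of sides asks which genes differ between left and right at the time when the heart loops.

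Collagens are the main fibrous proteins of the extracellular matrix. Their chains wind around one another into a rod-like helix, and fibrillar collagens pack into fibrils, whereas type IV collagens form the meshwork of basement membranes. In the early embryo, basement membranes underlie epithelia such as the foregut endoderm and the splanchnic mesoderm of the heart field, and the cardiac jelly between myocardium and endocardium is rich in matrix.

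The helix needs glycine at the first position of each triplet of residues, so that the coding sequence repeats a GGN codon. The stretches below are shown because they carry this feature for the 3 collagens that differed between sides and for the most abundant network collagen. Each gives 15 triplets from the start of the longest uninterrupted run, read from GENCODE vM21 coding sequences of GRCm38, with the glycine codon that opens each triplet in capitals.
Col5a1, from codon 559: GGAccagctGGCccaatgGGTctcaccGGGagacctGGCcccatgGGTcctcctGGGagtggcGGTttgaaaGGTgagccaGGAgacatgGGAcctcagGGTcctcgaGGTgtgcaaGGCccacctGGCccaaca
Col3a1, from codon 164: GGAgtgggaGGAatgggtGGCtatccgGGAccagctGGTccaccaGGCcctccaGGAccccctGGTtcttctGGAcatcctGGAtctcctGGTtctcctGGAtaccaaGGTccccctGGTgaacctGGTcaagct
Col26a1, from codon 199: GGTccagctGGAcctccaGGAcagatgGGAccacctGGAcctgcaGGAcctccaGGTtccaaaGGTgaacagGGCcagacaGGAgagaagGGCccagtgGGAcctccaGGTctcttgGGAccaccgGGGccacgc
Col4a1, from codon 43: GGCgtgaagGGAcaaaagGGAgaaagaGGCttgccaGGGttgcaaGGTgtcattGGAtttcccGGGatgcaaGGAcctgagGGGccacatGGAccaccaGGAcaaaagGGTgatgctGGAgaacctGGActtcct

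The longest uninterrupted run was 338 triplets in *Col5a1*, 344 in *Col3a1*, 40 in *Col4a1* and 23 in *Col26a1*. Over the 11 fibrillar collagens it ranged from 216 to 344 triplets with a median of 338. Medians were 45 in network collagens, 57 in FACITs and 43 in the other collagens, with highest values of 66, 113 and 87. The fibrillar collagens therefore stood apart in sequence from the other classes, with no overlap in run length. *Col26a1* had the shortest run of the family.

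Most of the family had few reads. The total count per library ranged from 1147446 to 3520753 reads, and a gene with 0 reads may still have a level of 0.852 CPM (reads scaled to a common library size) in the deepest library or 2.61 CPM in the shallowest, a limit of 3 reads that covers counting error only. Of the 44 genes, 29 had reads in every library. The filter of the study, at least 20 normalized counts in 4 of the 8 libraries, was passed by 19 collagens, comprising 8 fibrillar, 4 network, 2 FACIT and 5 other collagens. Normalized counts are reads divided by the DESeq2 size factor of the library.

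The 25 collagens below the filter were not tested. *Col6a6* had 0 reads, 11 genes had between 1 and 10 reads over all libraries, 5 had between 11 and 50, and 8 had more. Among the latter, *Col22a1* had 138 reads in all, *Col11a2* 136, *Col6a1* 127 and *Col7a1*, which encodes the anchoring fibrils of skin, 108. *Col16a1*, *Col14a1*, *Col9a3* and *Col9a2* had 61 to 93. The chains *Col4a3* and *Col4a4*, found in the mature basement membrane of the kidney glomerulus, had 2 and 5 reads, and *Col10a1*, a collagen of hypertrophic cartilage, had 2. *Col17a1*, a transmembrane collagen of skin, had 4. The others with 1 to 10 reads were *Col5a3*, *Col6a4*, *Col6a5*, *Col8a1*, *Col19a1*, *Col20a1* and *Col28a1*, and those with 11 to 50 were *Col24a1* (38), *Col8a2* (29), *Col15a1* (29), *Col6a3* (19) and *Col25a1* (16).

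Collagens took 0.288% ± 0.0270 of reads in left libraries and 0.265% ± 0.0225 in right libraries (SD, n = 4), and the sides overlapped. Of the collagen reads in a library, network collagens held 36.4%, the other collagens 32.3%, fibrillar collagens 29.3% and FACITs 2.01% (means of 8 libraries). The fibrillar share was 31.3% ± 3.43 in left libraries and 27.3% ± 1.52 in right libraries (SD, n = 4). The sides overlapped, but within embryos the share was larger on the left each time, at 35.3% against 28.8% in L29-3, 31.5% against 28.3% in L43-5, 31.4% against 25.5% in L46-8 and 26.9% against 26.8% in L49-3. The last of these differences is far smaller than the others. The share includes *Col5a1*, which alone had 683 of 7076 collagen reads on the left and 290 of 4549 on the right in L29-3. It had 677 of 8547 and 497 of 9402 in L43-5, 664 of 6926 and 150 of 3755 in L46-8, and 237 of 3068 and 151 of 2847 in L49-3. Whether the other fibrillar collagens keep this direction as a share was not tested. The direction in all 4 embryos is therefore shown only for the share that includes *Col5a1*. Of the 8 fibrillar collagens that passed the filter, *Col5a1* among them, 5 were higher on the left in L29-3. This number was 7 in L43-5, 7 in L46-8 and 4 in L49-3. Among all genes tested it was 4864, 4974, 4870 and 4815 of 9744 in the same order. *Col4a1*, *Col4a2*, *Col18a1*, *Col2a1* and *Col5a1* together made up 77.0% of collagen reads, between 74.2% and 81.1% in single libraries.

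To compare genes, levels were expressed as CPM after TMM normalization per kilobase of the longest protein-coding transcript. *Col18a1*, a multiplexin of basement membranes and the source of endostatin, was highest at 132 ± 7.85 (SD, n = 8), in place 522 of the 9744 genes tested. *Col4a1* followed at 94.2 ± 6.37, *Col2a1*, a fibrillar collagen of notochord and cartilage, at 63.1 ± 11.8, and *Col4a2* at 45.1 ± 3.14. Each of these 4 genes was above the next in 8 of 8 libraries.

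Below them, the order was less firm. *Col26a1* (27.6 ± 5.34), *Col5a1* (23.9 ± 8.60) and *Col1a2* (23.2 ± 4.10) lay within their spread, *Col26a1* being above *Col5a1* in 5 libraries and *Col5a1* above *Col1a2* in 3. *Col1a2* was above *Col4a5* (9.68 ± 2.83) in all 8. The remaining 11 genes ran from *Col13a1* at 9.08 ± 2.05 to *Col12a1* at 1.29 ± 0.476, and each exceeded the next in 4 to 7 libraries. Transcript length replaced the union of annotated exons after the data were seen. With that union, *Col26a1* was lower at 9.39, *Col1a2* at 9.96 and *Col2a1* at 34.8, so that *Col4a2* ranked above *Col2a1*.

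**Figure D1:**
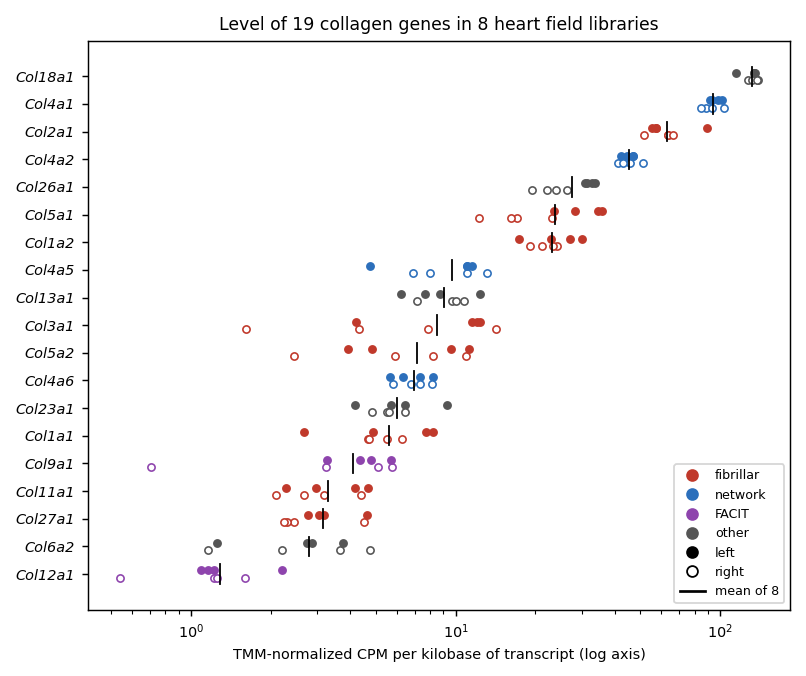
Level of the 19 tested collagens in each library, as TMM-normalized CPM per kilobase of transcript on a log axis; colors give the class, filled points the 4 left and open points the 4 right libraries, and ticks the mean of 8. *Col18a1* and *Col4a1* are highest with the tightest spread. Points of *Col3a1* (1.62 to 14.2) and *Col9a1* (0.706 to 5.75) spread widest on this axis.

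Spread between libraries also separated the genes. The coefficient of variation of the level was 5.95% for *Col18a1*, 6.76% for *Col4a1* and 6.96% for *Col4a2*, against 46.8% for *Col5a2* and 54.8% for *Col3a1*. *Col3a1* had between 16.6 and 146 normalized counts per library and *Col4a1* between 1032 and 1269, so that counting error alone is larger for the former.

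Between sides, 3 of the 19 collagens differed, all higher on the left. They were *Col5a1* and *Col3a1*, which are fibrillar, and *Col26a1*. The threshold followed the study, with a difference of 1.2-fold or more and an unadjusted p no higher than 0.05, applied to the quasi-likelihood test of edgeR, in which the embryo was a block. Over all 9744 genes it called 3.05%, with 1.63% higher and 1.42% lower on the left. After Benjamini-Hochberg adjustment over all genes, no collagen had an adjusted p under 0.05 in edgeR or in limma-voom (0.0103% of genes called in edgeR). An unadjusted p under 0.05 in edgeR was reached by 3 (4.36% of all genes). DESeq2 called 1 after adjustment, *Col5a1*. No adjusted share over all genes is given for DESeq2 or limma-voom, so that call cannot be read as particular to collagens. In this dissected tissue, more cells of a kind and more RNA per cell cannot be told apart.

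*Col5a1* encodes the chain of type V collagen that starts fibrils and limits their diameter (chromosome 2, 27886425 to 28039514, plus strand, GRCm38). In normalized counts, left compared with right was 554 against 359 in L29-3, 441 against 265 in L43-5, 540 against 190 in L46-8 and 367 against 251 in L49-3. Every left library was above every right library, the lowest left value of 366.9 lying just over the highest right value of 359.0. The left mean was 476 ± 88.1 and the right mean 266 ± 69.8 (SD, n = 4), a 1.80-fold difference.

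The log2 fold change of *Col5a1* was 0.84 with a standard error of 0.127, and the edgeR p-value was 2.42e-05, or 0.0785 after adjustment. The left to right log2 ratio was 1.49 in L46-8 and between 0.54 and 0.73 in the other embryos. Without L46-8, the log2 fold change was 0.65 and the edgeR adjusted p 0.0162. With DESeq2 the adjusted p was 0.000335, with limma-voom 0.0975 and without the block 0.902 in edgeR, and over all alternatives it ran from 6.91e-19, without the filter, to 0.902. The call by the threshold of the study held in all 11 alternatives. Exons of *Col5a1* share 99 and 113 bases with 2810430I11Rik and *Gm13372* on the other strand, which had 7 and 5 reads in all.

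*Col26a1* encodes a short collagen with an EMI domain (chromosome 5, 136741759 to 136883209, minus strand). Left compared with right was 168 against 100 normalized counts in L29-3, 162 against 124 in L43-5, 160 against 136 in L46-8 and 173 against 113 in L49-3. The sides did not overlap, and the 4 left values lay close together at 166 ± 6.15 against 118 ± 15.1 on the right (SD, n = 4). The log2 fold change was 0.48 with a standard error of 0.114 (edgeR p 0.00127, adjusted p 0.950), a 1.39-fold difference. Its call also held in all 11 alternatives.

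*Col3a1* encodes the chain of type III collagen, abundant in compliant tissues such as vessel walls (chromosome 1, 45311538 to 45349706, plus strand). Left compared with right was 118 against 146 normalized counts in L29-3, 124 against 81.1 in L43-5, 128 against 44.4 in L46-8 and 43.4 against 16.6 in L49-3. L29-3 was higher on the right, the other 3 embryos on the left, and the sides overlapped. Means were 103 ± 40.2 and 72.1 ± 56.0 (SD, n = 4), and the log2 fold change was 0.59 with a standard error of 0.238 (edgeR p 0.0281, adjusted p 0.987).

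The call of *Col3a1* depended on the choice of embryos. Without L29-3 the log2 fold change was 1.02 and the gene was still called. It was no longer called without L43-5 (0.60, edgeR p 0.0798) or L49-3 (0.52, p 0.0631), where the log2 fold change stayed near that of all embryos, nor without L46-8, where it was 0.31 (p 0.178). Without the block it was 0.51 (edgeR p 0.242).

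**Figure D2:**
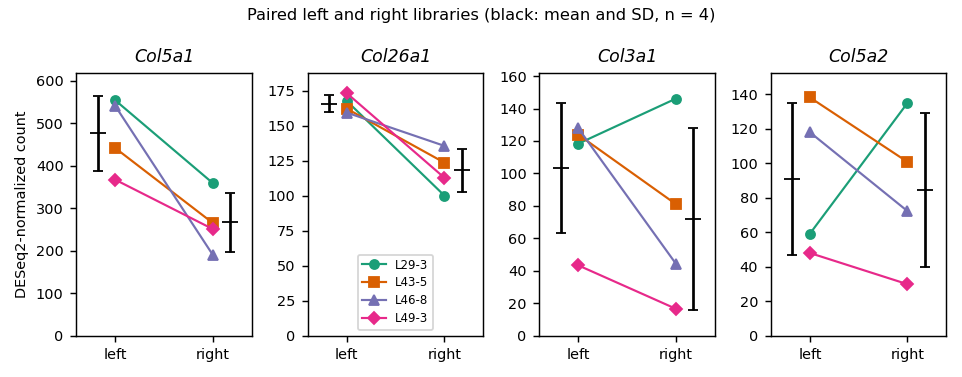
DESeq2-normalized counts of *Col5a1*, *Col26a1*, *Col3a1* and *Col5a2* on the left and right, with a line for each embryo and the mean and SD (n = 4) in black. Lines of *Col5a1* and *Col26a1* fall from left to right in 4 of 4 embryos, whereas L29-3 rises for *Col3a1* and *Col5a2*.

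The family as a whole leaned to the left only weakly. Of the 19 collagens, 13 had a positive log2 fold change (48.6% of all genes did), and the median was 0.13, against -0.00 for all genes tested. *Col5a1*, *Col26a1* and *Col27a1* were higher on the left in all 4 embryos (6.26% of all genes), and 0 collagens were lower in all 4 (6.11%). The 2 collagens without overlap, *Col5a1* and *Col26a1*, compare with 1.51% of all genes that lay wholly higher on the left and 1.01% wholly lower. By embryo, the median log2 ratio of the 19 was -0.06 (L29-3), 0.15 (L43-5), 0.19 (L46-8) and 0.10 (L49-3).

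Among the 8 fibrillar collagens, 8 had a positive log2 fold change with a median of 0.22, but 6 of these were not past the threshold. With an embryo left out, between 6 and 8 were positive. *Col1a2*, a chain of type I collagen, was 266 against 240 in L29-3, 298 against 232 in L43-5, 227 against 209 in L46-8 and 172 against 188 in L49-3 (left and right, normalized counts). Its log2 fold change was 0.15 with a standard error of 0.0936 (edgeR p 0.127). The partner chain *Col1a1* was 53.5 against 60.7, 90.6 against 51.2, 85.5 against 68.5, and 29.4 against 51.5 in the same order of embryos. Its direction was split, 2 embryos being higher on each side, and the log2 fold change was 0.20 with a standard error of 0.217.

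*Col2a1* was 842 against 600 in L29-3, 541 against 600 in L43-5, 543 against 485 in L46-8 and 525 against 625 in L49-3. The left library of L29-3 stood above the rest, and the sides differed by a log2 fold change of 0.07 with a standard error of 0.106. Markers of notochord, where *Col2a1* is expressed, were low. Over the 6 listed genes, of which 3 passed the filter and 0 were called, the summed normalized count was 55.3 to 167 on the left and 74.7 to 181 on the right. The 8 listed markers of sclerotome and paraxial mesoderm, of which 6 passed the filter and 0 were called, were higher. Their sum was 486 to 794 on the left and 574 to 726 on the right. The part of either tissue in the level of *Col2a1* was not tested.

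*Col27a1*, a fibrillar collagen known from cartilage, was 42.97 against 34.7 in L29-3, 39.1 against 32.5 in L43-5, 65.1 against 63.4 in L46-8 and 44.9 against 31.6 in L49-3. It was higher on the left in each embryo, with a log2 fold change of 0.25 and a standard error of 0.178 (edgeR p 0.192). *Col11a1*, a chain of type XI collagen, had log2 ratios of 0.98, 0.80, -0.55 and -0.46 in L29-3, L43-5, L46-8 and L49-3, so that embryos split evenly.

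**Figure D3:**
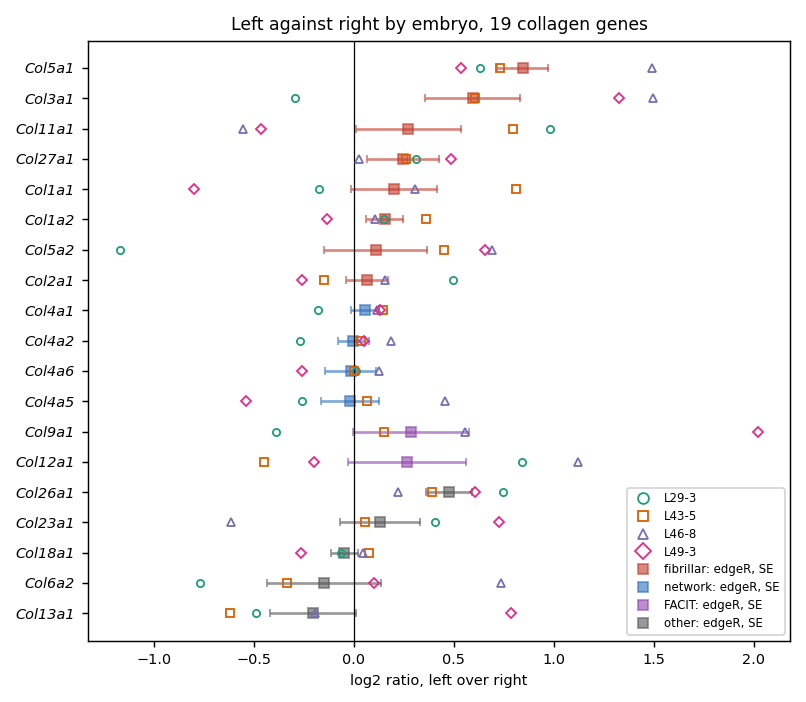
Log2 ratio of left to right for the 19 tested collagens, as open symbols for each embryo and as the edgeR estimate with its standard error (filled squares, colored by class). *Col5a1* at 0.84 and *Col26a1* at 0.48 have all 4 embryos to the right of the zero line, and network collagens lie close to that line.

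Network collagens differed little between sides, with log2 fold changes from -0.02 to 0.05. *Col4a1*, the main chain of basement membrane collagen, was 1117 against 1269 in L29-3, 1200.3 against 1083 in L43-5, 1242 against 1140 in L46-8 and 1138 against 1032 in L49-3 (left and right, normalized counts). Only L29-3 was higher on the right, and the log2 fold change was 0.05 with a standard error of 0.0688. Its partner *Col4a2* was 502 against 608, 557 against 544, 561 against 490, and 529.5 against 509 in the same order. Here too L29-3 was the exception, and the log2 fold change was -0.00 with a standard error of 0.0796.

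*Col4a5* and *Col4a6*, X-linked chains of a second basement membrane network, had log2 fold changes of -0.02 each, with standard errors of 0.145 and 0.127. *Col4a5* was 133 against 160 in L29-3, 139.5 against 133 in L43-5, 133 against 96.4 in L46-8 and 57.3 against 83.1 in L49-3. *Col4a6* was 101 against 100.3, 90.6 against 90.7, 78.1 against 71.1, and 69.7 against 83.1. L49-3 was lowest for *Col4a5* on both sides, whereas the sides overlapped for both genes.

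The 2 FACITs tested were weakly expressed. *Col9a1*, which coats fibrils of type II collagen, was 30.8 against 40.9 in L29-3, 40.4 against 36.3 in L43-5, 34.2 against 22.8 in L46-8 and 23.2 against 4.99 in L49-3. Its log2 fold change was 0.29 with a standard error of 0.288 (edgeR p 0.340), and the single largest ratio, 2.02 in L49-3, rests on 4.99 normalized counts on the right. *Col12a1* had log2 ratios from -0.45 to 1.12, and the embryos split evenly.

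Of the other collagens, *Col18a1* was 1379 against 1446 in L29-3, 1396 against 1325 in L43-5, 1410.5 against 1359 in L46-8 and 1189 against 1419 in L49-3. The log2 fold change was -0.05 with a standard error of 0.0673, and 2 embryos were higher on each side. *Col6a2*, a chain of the beaded filament collagen, was 23.5 against 40.9, 24.8 against 31.5, 32.6 against 19.03, and 10.8 against 9.97, with a log2 fold change of -0.15 and a standard error of 0.284. The transmembrane collagens *Col13a1* and *Col23a1* had log2 fold changes of -0.20 and 0.13, with embryos on either side of zero.

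Because some collagens assemble from defined partner chains, the ratio of such partners was compared within libraries, per transcript length. The ratio of *Col4a1* to *Col4a2* was nearly fixed, between 1.94 and 2.27 in the 8 libraries. These genes are transcribed from opposite strands of chromosome 8, and their exons share 22 bases. The ratio of *Col1a1* to *Col1a2* lay between 0.158 and 0.340, and that of *Col4a5* to *Col4a6*, which start 1308 bases apart on chromosome X, between 0.838 and 1.73. The size of a ratio depends on the length used. The mean of *Col1a1* to *Col1a2* was 0.235 per transcript length and 0.493 per union of exons, and that of *Col4a1* to *Col4a2* 2.09 and 1.90.

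The ratio of *Col5a1* to *Col5a2*, the chains of type V collagen, varied most among tested pairs, from 2.06 to 7.33. Its mean was 3.50 per transcript length and 5.02 per union of exons. *Col5a2* itself was 59.2 against 135 in L29-3, 138 against 101 in L43-5, 118 against 72.3 in L46-8 and 48.0 against 29.9 in L49-3. Only L29-3 was higher on the right, by a log2 ratio of -1.17, and the log2 fold change was 0.11 with a standard error of 0.257 (edgeR p 0.678). Without L29-3 it was 0.58 and past the threshold (edgeR p 0.00309). Thus all 4 embryos had more *Col5a1* on the left, and 3 had more *Col5a2*.

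Left minus right, the log2 ratio of *Col5a1* to *Col5a2* differed by 0.69 on average (SD 0.834, n = 4), the values being 1.81 (L29-3), 0.28 (L43-5), 0.80 (L46-8) and -0.12 (L49-3). The ratio favored the left in 3 of 4 embryos (two-sided exact permutation test by sign flips, p 0.25). The difference was 0.05 for *Col4a1* to *Col4a2* (SD 0.0844, exact p 0.25), -0.09 for *Col1a1* to *Col1a2* (SD 0.507, exact p 0.75) and -0.04 for *Col4a5* to *Col4a6* (SD 0.293, exact p 1.0). With the untested chains *Col6a1* and *Col9a3*, it was 0.61 for *Col6a1* to *Col6a2* and 1.29 for *Col9a1* to *Col9a3* (exact p 0.375 each). With 4 embryos the smallest p this test can give is 0.13, and over the 6 pairs the Benjamini-Hochberg values ran from 0.5625 to 1.0.

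**Figure D4:**
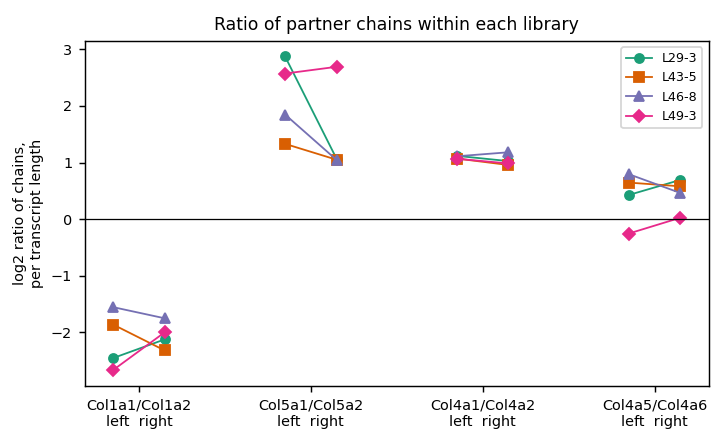
Log2 ratio of partner chains per transcript length in each library, left and right joined by embryo, for the 4 pairs in which both chains passed the filter. *Col4a1* over *Col4a2* stays near 1 on this scale, whereas *Col5a1* over *Col5a2* spreads from 1.04 to 2.87.

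*Col3a1* and *Col5a2* are neighbors on chromosome 1, facing each other 24614 bases apart with no coding gene between. Both were higher on the right in L29-3, and both had their lowest embryo mean in L49-3.

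Apart from side, several collagens varied between embryos. By the edgeR test for embryo, 7 of 19 collagens had an unadjusted p no higher than 0.05, against 9.99% of all genes, and 0 had an adjusted p under 0.05 (0.174% of all genes). Limma-voom called 0 and DESeq2 1, *Col3a1*, and no share over all genes is given for these tools. The smallest edgeR p-values were 0.00158 for *Col3a1* (adjusted p 0.145), 0.00336 for *Col4a5* (0.180), 0.00838 for *Col1a2* (0.266), 0.0138 for *Col27a1* (0.315) and 0.0164 for *Col5a2* (0.338).

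Most of these genes were low in L49-3. As means of both sides in L29-3, L43-5, L46-8 and L49-3, *Col3a1* was 132, 102, 86.1 and 30.0 normalized counts, and *Col5a2* was 97.1, 119.5, 95.2 and 39.0. *Col4a5* was 146, 136, 115 and 70.2, and *Col1a2* was 253, 265, 218 and 180. L49-3 had the lowest value for 12 of the 19 collagens, whereas L29-3 had the highest for 10. The share of all genes with their lowest or highest value in these embryos is not given. These counts therefore cannot be read as particular to collagens.

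Against the mean of the other embryos, L49-3 was lower by a log2 difference of -1.78 for *Col3a1*, -1.38 for both *Col5a2* and *Col6a2*, -1.22 for *Col9a1* and -0.90 for *Col4a5*. The median over the 19 was -0.22, against -0.00 over all genes tested. *Col4a1*, *Col4a2*, *Col18a1* and *Col26a1* differed little, and the largest such difference among them was -0.11. *Col27a1* was instead highest in L46-8, by 0.76, and *Col2a1* in L29-3, by 0.39.

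**Figure D5:**
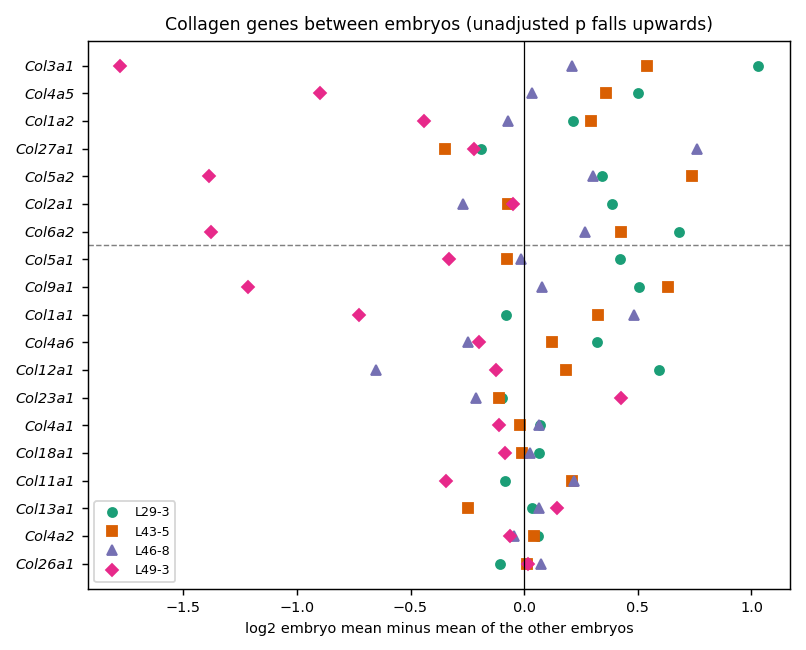
Log2 mean of each embryo minus the mean of the other 3, for the 19 tested collagens ordered by the unadjusted edgeR p for embryo; genes above the dashed line have a p of at most 0.05. L49-3 (diamonds) lies to the left for *Col3a1*, *Col5a2*, *Col6a2*, *Col9a1* and *Col4a5*, whereas *Col4a1*, *Col4a2*, *Col18a1* and *Col26a1* stay near zero.

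L49-3 stood apart in other ways as well. Its total counts were the lowest, at 1237593 (left) and 1147446 (right). Summed normalized counts of 8 cardiomyocyte markers, 7 of which passed the filter, were 4966 (L29-3), 3441 (L43-5), 2489 (L46-8) and 1427 (L49-3). Those of 7 neural tube markers, 5 of which passed, were 519 to 532 in the other embryos and 879 in L49-3. Those of 7 endothelial markers were 804 to 877 and 598. Those of the 10 heart field markers were 830 to 1000.3 and 795, and single genes went both ways. *Isl1*, *Six2*, *Fgf10* and *Tbx1* had their highest embryo mean in L49-3, whereas *Tbx5*, *Mab21l2*, *Hand1*, *Hand2* and *Osr1* had their lowest there. *Tbx5* alone of the 10 had an edgeR adjusted p for embryo under 0.05, at 0.0201. Their part in the collagen values was not tested.

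Between sides, the summed cardiomyocyte markers were 667 to 5066 on the left and 1799 to 4866 on the right, and the neural tube markers 351 to 841 and 477 to 917, so that both overlapped. Among neural tube markers, *Sox1* and *Pax6* were lower on the left, with log2 fold changes of -0.98 and -0.83. None of the tested markers of cardiomyocytes, endothelium, notochord, paraxial mesoderm, cranial neural crest, surface ectoderm or foregut endoderm was past the threshold. All 10 heart field markers passed the filter and 0 differed between sides, with a sum of 730 to 1152 on the left and 759 to 977 on the right.

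Collagens need hydroxylation, chaperones, cleavage, crosslinks and receptors, for which 46 genes were listed. Of these, 27 passed the filter, and 0 were past the threshold in edgeR in either direction, with limma-voom and DESeq2 calling 0 as well. The log2 fold changes ran from -0.24 to 0.41, with 20 positive (48.6% of all genes) and a median of 0.08. A single gene reached an unadjusted p under 0.05 in edgeR, *P4ha1*, a catalytic subunit of prolyl 4-hydroxylase. It was 329 against 285 in L29-3, 235 against 209 in L43-5, 238 against 194 in L46-8 and 282 against 221 in L49-3 (left and right, normalized counts). Each embryo was higher on the left, by a log2 fold change of 0.25 with a standard error of 0.0790 (edgeR p 0.00913), which is below the 1.2-fold limit.

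Several of these genes had high levels. *Serpinh1*, the collagen chaperone HSP47, reached 401 ± 40.5 CPM per kilobase of transcript (SD, n = 8), in place 135 of the tested genes and above every collagen. *P4hb*, the other subunit of prolyl 4-hydroxylase, reached 275 ± 17.7. Highest in their roles were also *Colgalt1*, which glycosylates hydroxylysine, at 30.2, the propeptide protease *Bmp1* at 11.6, the crosslinking enzyme *Loxl2* at 33.8, the integrin subunit *Itgb1* at 98.8 and the collagen-binding protein *Sparc* at 101. In contrast, *Lox* had 15 reads in all, and the collagen-binding integrin subunits *Itga1*, *Itga2*, *Itga10* and *Itga11* had 107, 12, 41 and 16.

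The promoters of *Col5a1* and *Col3a1* are shown because these genes had the largest log2 fold changes of the family and differ in composition. Each line gives the 250 bases before the RefSeq start in GRCm38.p6, with matches to 4 motifs in capitals, namely the TATA box TATAAA, the GC box GGGCGG, the SMAD-type motif GTCTAG and the FOXH1-type motif AATNCACA (for a factor through which Nodal signals act), searched on both strands.
Col5a1, chr2:27886175-27886424, plus strand: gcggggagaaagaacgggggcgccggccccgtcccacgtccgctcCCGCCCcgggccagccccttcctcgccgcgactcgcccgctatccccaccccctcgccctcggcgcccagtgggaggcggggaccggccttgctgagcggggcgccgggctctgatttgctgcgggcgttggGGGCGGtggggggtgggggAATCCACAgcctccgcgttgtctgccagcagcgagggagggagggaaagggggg
Col3a1, chr1:45311288-45311537, plus strand: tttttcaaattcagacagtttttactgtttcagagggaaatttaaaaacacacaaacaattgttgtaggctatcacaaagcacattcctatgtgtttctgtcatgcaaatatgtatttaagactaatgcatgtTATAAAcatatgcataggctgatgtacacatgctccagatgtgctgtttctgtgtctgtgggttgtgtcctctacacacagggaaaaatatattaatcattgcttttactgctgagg

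The *Col5a1* window was 76.4% GC, held GGGCGG 205 bases (as its reverse complement) and 73 bases before the start, and held AATCCACA, a match to AATNCACA, 54 bases before it. The *Col3a1* window was 35.2% GC and held TATAAA 117 bases before the start. Over 32544 RefSeq promoters, in windows that add 50 bases after the start, AATNCACA was present in 3.62%, GTCTAG in 8.39%, TATAAA in 13.6%, CCAAT in 37.4% and GGGCGG in 35.9%. Of the 35 collagens with an entry, AATNCACA was present in 3 (*Col5a1*, *Col8a2* and *Col9a1*), GTCTAG in 2, TATAAA in 5, CCAAT in 13 and GGGCGG in 22. These matches describe the letters only.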

How the data were processed

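RNA of left and right heart fields of 4 embryos was sequenced as 8 libraries from polyA RNA with an oriented library kit. The authors used HISAT2 to map read pairs to GRCm38, removed duplicates and deposited counts of reads per gene from featureCounts, not normalized; the versions and the use of strand are not given in the sources used here. Total counts of 1147446 to 3520753 per library set the precision.

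GENCODE vM21 gave a symbol for 48144 of 48526 genes. Sides and embryos were tested with edgeR 4.0.16 (TMM, quasi-likelihood) in R 4.3.3, with terms for embryo and side, on the 9744 genes with at least 20 DESeq2-normalized counts in at least 4 libraries, and adjusted with Benjamini-Hochberg over all of them. limma-voom 3.58.1, DESeq2 1.42.0, other scalings and filters, no block, and each embryo left out were alternatives. Ratios of single embryos used TMM CPM with a pseudocount of 0.5, which was also added to the counts of chain ratios (alternative 2). Levels were planned per union of exons and, after seeing the data, given per longest protein-coding transcript, since retained introns lengthen that union. Scripts were tested on simulated counts.

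Both sides come from the same animal, so that samples are paired by embryo. Deviations from the side means correlated at 0.167 (L29-3), 0.187 (L43-5), -0.022 (L46-8) and 0.431 (L49-3). Left and right of different embryos correlated at -0.388 to 0.253. Only L49-3 lay above that range. No pair of libraries was as alike as counting noise allows (lowest chi-square per degree of freedom 1.93).

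Genes described in full were those past the threshold of the study, partner chains, the 3 highest levels, the 5 smallest p-values for embryo, and the smallest p-value for side in each class. Members and lists were chosen with earlier results of these data known. Between transcripts read in the same direction, stretches of 100 bases were shared only between *Col6a5* and *Col6a6* and between *Col3a1* and *Gm47302*, a miRNA with 0 reads. On the opposite strand, exons of *Col4a3*, *Col9a3*, *Col6a4* and *Col5a1* overlap those of other genes by more than 100 bases. The largest such overlap was 563 bases, between *Col4a3* and C430014B12Rik, which had 2 reads.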

Additional observations from a re-analysis of the deposited data

Results flagged for a closer look

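In 69 groups of 4 values (left counts, right counts, log2 ratios of the tested collagens and chain ratios), Dixon's test at 95% marked a sample far from the other 3 in 9. Chance marks about 1 in 20, or 3.45 on average. Because the ratios are built from the same counts, the groups are not independent, and whether 9 exceeds chance cannot be judged from this.

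In L29-3, the left library was high for *Col2a1* (842 normalized counts) and *Col12a1* (47.0), and the left to right log2 ratio was low for *Col4a1* (-0.18) and *Col5a2* (-1.17).

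In L49-3, the left library was low for *Col3a1* (43.4 normalized counts), *Col4a5* (57.3) and *Col18a1* (1189), and the log2 ratio of *Col5a1* to *Col5a2* on the right was high (2.69). The right library of L46-8 was high for *Col27a1* (63.4 normalized counts).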

How the results depend on the processing

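*Col5a1* and *Col26a1* kept their call in all 11 alternatives, and the one member called lower on the left in any setting was *Col13a1*, without L49-3 (-0.45). The number of collagens past the threshold was 3 in the main setting (3.05% of all genes called) and 2 without the replicate block (2.39%). With DESeq2 it was 3 (0.606%), and with an embryo left out between 2 and 4 (2.86% to 3.96%). The number with an adjusted p under 0.05 was 0 in edgeR in the main setting and rose to 1 (*Col5a1*) without the filter and with DESeq2. With an embryo left out it was 0 to 1, the 1 being without L46-8. An adjusted share over all genes is given for the main setting only (0.0103%). The other adjusted counts for side cannot be read as particular to collagens. *Col11a1* was called without L46-8 (0.57).

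Pathway genes called were 0, but 3 without the filter (*Ddr2*, *Lum* and *P3h2*), where 2.88% of all genes were called. With an embryo left out they were 0 to 2 (2.86% to 3.96% of all genes). For differences between embryos, the adjusted count of 0 became 6 without the filter and 1 with DESeq2, and was 0 to 3 with an embryo left out. A share over all genes is given for the main setting only (0.174%), so the other counts cannot be read as particular to collagens. Without the filter, 23873 genes were fitted. There the edgeR p for side of *Col3a1* was 8.38e-05 against 0.0281 in the main setting, at log2 fold changes of 0.61 and 0.59.

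Signs turned only for members not past the threshold in the main setting. *Col4a2* was 0.011 with library size alone, 0.012 without the filter and 0.00039 with at least 10 counts in every library, and *Col4a5* was 0.0060 with limma-voom. With an embryo left out, log2 fold changes ranged from -0.11 to 0.38 for *Col1a1*, -0.081 to 0.16 for *Col2a1*, -0.064 to 0.092 for *Col4a2*, -0.17 to 0.076 for *Col4a5*, -0.058 to 0.039 for *Col4a6*, -0.096 to 0.58 for *Col5a2*, -0.46 to 0.12 for *Col6a2*, -0.089 to 0.020 for *Col18a1* and -0.035 to 0.36 for *Col23a1*. The left minus right difference of *Col1a1* to *Col1a2* ranged from -0.27 to 0.11 in the same way, and that of *Col4a5* to *Col4a6* from -0.16 to 0.044. The cause was not tested. Without the replicate block, *Col3a1* was at 0.51 and lost its call, and no other call changed.

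Depth limits the collagens of low count, and 25 were not tested. Chain ratios with *Col9a3* and *Col6a1* rest on 62 and 127 reads in all. Exons of *Col9a3* also share 234 bases with the coding gene *Tcfl5* on the other strand, which had 238 reads in all. Because the use of strand is not given, whether reads of *Tcfl5* entered the counts of *Col9a3* is not known.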
